A study of Mus musculus with 6 samples.

Results

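Expression of 10 genes of the transforming growth factor beta (TGF-beta) pathway was followed in N2A cells after depletion of the long non-coding RNA Dali. The genes are the ligands Tgfb1, Tgfb2 and Tgfb3, the receptors Tgfbr1, Tgfbr2 and Tgfbr3, the signal transducer Smad3, and Tgfbi, Smad7 and Skil, which the pathway is known to induce. They were chosen by exact gene symbol, and each had 1 probe set (a group of short probes along a transcript, read as 1 value) among the 21789 of 35556 that are annotated to a single symbol. N2A is an established mouse neuroblastoma line grown in serum. Each group has 3 samples, and the cells of all 6 were transfected with 1.5 ug of a construct expressing a short hairpin RNA (shRNA). Control cells received a non-targeting vector and Dali knockdown cells a Dali-directed construct, and total RNA taken 2.5 days later, per the labels, was hybridised to Affymetrix Mouse Gene 1.0 ST arrays. Since the labels name no further hairpin, what else the Dali-directed construct may do and the loss of Dali cannot be told apart here. Any untransfected cells are part of each sample. By RT-qPCR with further independent Dali hairpins, the paper found like changes for nearly all of the array-called genes it checked. It judged off-target effects unlikely to dominate the array changes, but its text does not say whether these 10 genes were checked.

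TGF-beta ligands are secreted as latent dimers, held in the matrix until they are released. The active dimer binds the type II receptor TGFBR2, often presented by the accessory receptor TGFBR3, and this complex recruits and phosphorylates the type I receptor TGFBR1. TGFBR1 then phosphorylates SMAD2 and SMAD3, which enter the nucleus with SMAD4 and bind DNA. Among the genes switched on are Smad7 and Skil, whose products restrain the pathway. In neural cells the pathway is known for its part in survival, cell cycle exit and differentiation.

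Dali knockdown lowered a ligand, a receptor and a target. Tgfb3 fell 2.21-fold, Tgfbr1 1.60-fold and Tgfbi 1.57-fold, whereas the other 7 genes did not pass the test. A gene was called when its limma adjusted p was under 0.1 with a change of at least 1.3-fold. Of the 10 genes, 7 passed a filter that kept the more variable 11705 of 23410 named probe sets, and 3 of them were called, all lower. The methods of the study give a variance cut-off of 0.5 without its measure, and do not say whether rows lacking a gene symbol were included. With such rows kept in the filter 0 of the 10 were called (limma adjusted p = 0.39 for Tgfb3, 0.40 for Tgfbr1 and Tgfbi). In that setting 0 of all 17778 rows tested were called. Of all probe sets tested, 133 were called (1.14%), and 0.769% were called lower. Counted over all 10 genes, 8 had a lower mean in knockdown cells, as did 44.8% of the 23410 probe sets with a gene symbol, and 6 were lower in each of the 3 pairs of arrays with the same replicate number, as were 19.7%. The knockdown arrays all lay below the control arrays for 4 genes (6.84% of named probe sets) and all above them for 0 (8.59%). The median difference was -0.08 on the log2 scale over the 10 genes and 0.02 over all named probe sets. Both include genes with differences near 0. The 10 genes were chosen with earlier results of these data known, so the shares over all probe sets are given for scale and carry no test.

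**Figure D1:**
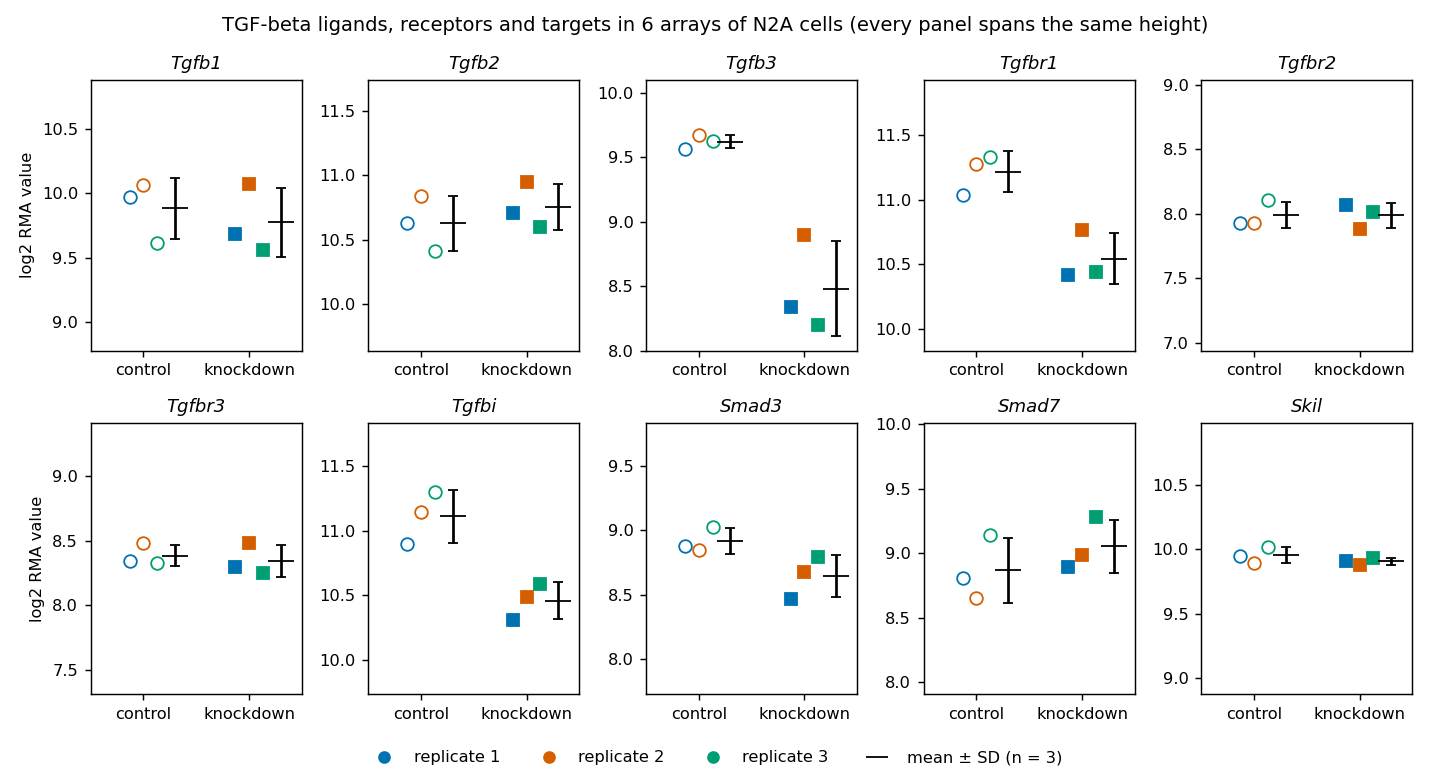
Log2 RMA values (vertical axes) of the 10 genes in the 3 control (open circles) and 3 Dali knockdown arrays (filled squares), coloured by replicate number, with bars for the mean and SD (n = 3). The groups stand apart for Tgfb3 (means 9.62 and 8.48), Tgfbr1 (11.22 and 10.54), Tgfbi (11.11 and 10.46) and, by less, Smad3 (8.92 and 8.65), and overlap for the other 6 genes.

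Promoter windows show how unlike the start sites of these genes are. Each window runs from 250 bases before to 50 bases after a transcription start in RefSeq (build GRCm38.p6), and 6 of the 10 genes had one. Tgfb3, Tgfbr3, Smad7 and Skil had none in the table used. Capitals mark matches on either strand to 5 short motifs, and no matches overlapped. CAGAC is the core of the SMAD-binding element. The other motifs are the GC box (GGGCGG), the CCAAT box, the TATA box (TATAAA) and an E-box (CACGTG). The windows of both called genes with an entry are shown, with that of Tgfb2 for contrast, a ligand gene that did not pass the test. Coordinates are those of RefSeq on that build, not of the array annotation.
Tgfbr1, chr4:47352972-47353271, plus strand: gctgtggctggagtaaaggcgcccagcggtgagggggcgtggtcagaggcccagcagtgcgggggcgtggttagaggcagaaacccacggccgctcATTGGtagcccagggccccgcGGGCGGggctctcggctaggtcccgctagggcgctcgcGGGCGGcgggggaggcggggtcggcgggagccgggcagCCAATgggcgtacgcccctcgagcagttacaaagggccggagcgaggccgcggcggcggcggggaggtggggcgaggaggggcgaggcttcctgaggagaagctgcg
Tgfbi, chr13:56609336-56609635, plus strand: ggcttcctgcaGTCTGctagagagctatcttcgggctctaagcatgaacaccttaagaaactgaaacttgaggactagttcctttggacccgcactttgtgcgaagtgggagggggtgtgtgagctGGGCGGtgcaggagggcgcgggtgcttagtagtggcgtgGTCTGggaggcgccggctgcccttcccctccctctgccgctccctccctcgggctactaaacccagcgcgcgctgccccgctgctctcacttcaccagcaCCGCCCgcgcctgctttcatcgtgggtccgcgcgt
Tgfb2, chr1:186705940-186706239, minus strand: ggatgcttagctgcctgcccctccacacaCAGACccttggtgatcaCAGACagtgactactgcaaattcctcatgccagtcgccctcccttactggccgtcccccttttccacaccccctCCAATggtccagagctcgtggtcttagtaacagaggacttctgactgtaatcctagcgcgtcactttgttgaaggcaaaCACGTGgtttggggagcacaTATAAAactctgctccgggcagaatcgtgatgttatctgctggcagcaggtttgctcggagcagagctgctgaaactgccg

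The Tgfbr1 window is rich in CpG, with 34 CpG dinucleotides in 300 bases, 2 GC boxes and 2 CCAAT matches. A second Tgfbr1 start in RefSeq (chr4:47385966-47386265) has 3 CpG dinucleotides and 1 CAGAC match. The Tgfbi window has 22 CpG dinucleotides, 2 GC boxes and 2 CAGAC matches. The Tgfb2 window has 10 CpG dinucleotides and also 2 CAGAC matches, with a TATA box 31 bases and an E-box 51 bases before the start. Over all 32851 windows in the table, 49.6% hold CAGAC, 35.7% GGGCGG, 37.4% CCAAT, 13.6% TATAAA and 7.15% CACGTG. Of the windows shown, those of Tgfbi, which fell, and Tgfb2, which did not pass, held the core of the SMAD element. The Tgfbr1 window shown held none, and Tgfb3 had no window. This core is common in windows of this length, and its part in the falls was not tested. Tgfb1 has 30 CpG dinucleotides and 6 GC boxes in its window, Tgfbr2 15 CpG dinucleotides and 1 CAGAC match, and Smad3 25 CpG dinucleotides and 2 GC boxes.

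Of the ligands, Tgfb3 changed and the others did not pass the test. Tgfb3, one of the isoforms made by neurons and glia and needed for palate fusion, was at 9.57, 9.67 and 9.63 in control replicates 1, 2 and 3 and at 8.34, 8.90 and 8.20 in knockdown replicates 1, 2 and 3 (log2 values). All knockdown arrays lay below all control arrays, which were close together, and knockdown replicate 2 was the highest of the knockdown arrays. The mean fell from 9.62 ± 0.05 to 8.48 ± 0.37 (SD, n = 3), a difference of -1.14 (SE 0.17, limma adjusted p = 0.0072). The 95% interval of the fall ran from 1.73-fold to 2.81-fold. This call was lost with rows lacking a symbol in the filter (limma adjusted p = 0.39) and without knockdown replicate 1 (0.18). Without the variance filter it passed narrowly (limma adjusted p = 0.094). Among all 23410 named probe sets, 2 had a difference at least as low, counting Tgfb3 (0.00854%), and 7 differed by at least 1 on that scale in either direction (0.0299%). The exact permutation test gave p = 0.1, the smallest two-sided p that 3 arrays against 3 allow. In bulk RNA, less Tgfb3 RNA per cell cannot be told apart from fewer cells that express it.

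Tgfb1, the isoform best known from immune and mesenchymal cells, stood at 9.97, 10.06 and 9.62 in control and 9.68, 10.07 and 9.56 in knockdown replicates 1 to 3. The groups overlapped almost fully, with replicate 3 lowest in both. The difference was -0.11 (SE 0.16, limma adjusted p = 0.87), with an interval from -0.45 to 0.23. Tgfb2, prominent in the developing nervous system, stood at 10.63, 10.84 and 10.42 in control and 10.71, 10.95 and 10.60 in knockdown replicates 1 to 3. Each knockdown array was above the control array of its number, although the groups overlapped. The difference was 0.13 (SE 0.15, limma adjusted p = 0.83), with an interval from -0.19 to 0.44.

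Whether Tgfb3 moved apart from its relatives was compared within arrays, so that scaling between arrays cancels. Its log2 value relative to Tgfb1 was lower in knockdown than in control cells by a difference of -1.03, with -0.94, -0.79 and -1.37 in the pairs numbered 1, 2 and 3. Relative to Tgfb2 the difference was -1.27, with -1.31, -0.89 and -1.61. In both contrasts the 3 knockdown values were below each of the 3 control values (exact permutation p = 0.1, the smallest possible). They are 2 of 6 such contrasts, chosen after the values were seen, for each of which the exact p was 0.1, also after Benjamini-Hochberg adjustment over the 6. Both Tgfb3 contrasts set a called gene against genes that did not pass, so they add no separate evidence.

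The type I receptor gene changed while the genes of the other receptors did not pass. Tgfbr1, encoding the kinase that passes the signal to SMAD2 and SMAD3, stood at 11.04, 11.28 and 11.34 in control and 10.42, 10.77 and 10.44 in knockdown replicates 1 to 3. All knockdown arrays lay below all control arrays, and knockdown replicate 2 was again the highest of its group. The mean fell from 11.22 ± 0.16 to 10.54 ± 0.20 (SD, n = 3), a difference of -0.67 (SE 0.15, limma adjusted p = 0.061). The interval of the fall ran from 1.29-fold to 1.98-fold. This call was lost without the variance filter (limma adjusted p = 0.13), with rows lacking a symbol in it (0.40), without control replicate 2 (0.11) and without knockdown replicate 1 (0.40).

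Tgfbr2, the receptor that binds the ligand, stood at 7.93, 7.93 and 8.11 in control and 8.07, 7.88 and 8.01 in knockdown replicates 1 to 3. The groups overlapped and the difference was 0.00 to 2 decimals (SE 0.09, limma adjusted p = 0.998, no variance filter). The interval ran from -0.21 to 0.21, that is from a change of -13.5% to one of 15.4%. Tgfbr3, or betaglycan, a proteoglycan that presents ligand to TGFBR2, stood at 8.34, 8.48 and 8.33 in control and 8.30, 8.48 and 8.25 in knockdown replicates 1 to 3. These groups also overlapped, with a difference of -0.05 (SE 0.09, limma adjusted p = 0.93, no variance filter) and an interval from -0.26 to 0.17. Within arrays, Tgfbr1 relative to Tgfbr2 differed by -0.67 between the groups and relative to Tgfbr3 by -0.63. Both contrasts are among the 6 chosen after the values were seen. They set a called gene against genes that changed little, so groups that do not overlap (exact permutation p = 0.1) add no separate evidence.

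**Figure D2:**
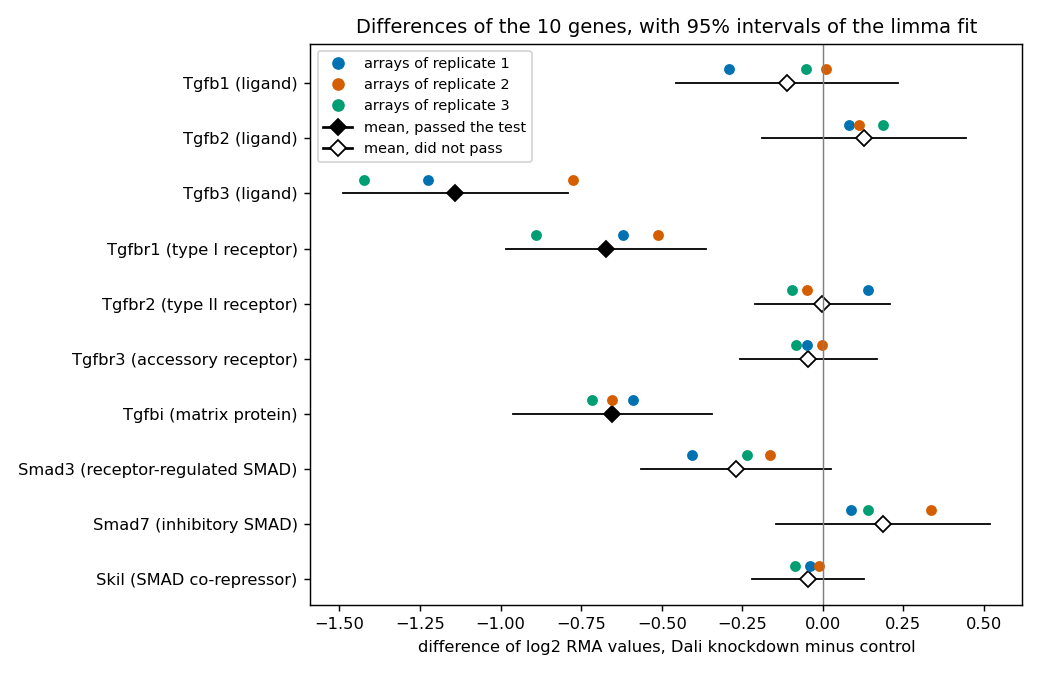
Difference of log2 RMA values, Dali knockdown minus control (horizontal axis), for each of the 10 genes. Coloured points are differences between arrays of one replicate number, diamonds the group difference (filled where it passed the test) and lines its 95% interval. The intervals of Tgfb3 (-1.14), Tgfbr1 (-0.67) and Tgfbi (-0.65) lie clear of 0, while those of the other 7 genes include 0. Pair differences were all below 0 for these genes and also for Smad3, Tgfbr3 and Skil, and all above 0 for Tgfb2 and Smad7.

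Smad3, the transducer that carries the signal from TGFBR1 to DNA, was lower in each knockdown array but did not pass the test. It stood at 8.88, 8.84 and 9.03 in control and 8.47, 8.68 and 8.79 in knockdown replicates 1 to 3. The groups did not overlap, although the highest knockdown array lay close to the lowest control array. Groups that do not overlap, in either direction, were found for 15.4% of all named probe sets. The difference was -0.27 (SE 0.14, limma adjusted p = 0.44), with an interval from -0.56 to 0.03. With the replicate number as a block its limma adjusted p was 0.075, but its change of 1.21-fold was under the 1.3-fold threshold.

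Of the 3 target genes Tgfbi fell, and Smad7 and Skil did not pass the test. Tgfbi, an extracellular matrix protein that binds integrins and was named for its induction by TGF-beta, stood at 10.90, 11.14 and 11.30 in control and 10.31, 10.49 and 10.59 in knockdown replicates 1 to 3. All knockdown arrays lay below all control arrays, and the fall was of like size in the pairs (-0.59, -0.65 and -0.72). The mean fell from 11.11 ± 0.21 to 10.46 ± 0.14 (SD, n = 3), a difference of -0.65 (SE 0.15, limma adjusted p = 0.066). The interval of the fall ran from 1.27-fold to 1.95-fold. Like the call of Tgfbr1, it was lost without the variance filter (limma adjusted p = 0.13), with rows lacking a symbol in it (0.40), without control replicate 2 (0.11) and without knockdown replicate 1 (0.40).

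Smad7, the inhibitory SMAD that blocks TGFBR1 and is induced as feedback, stood at 8.81, 8.65 and 9.14 in control and 8.89, 8.98 and 9.28 in knockdown replicates 1 to 3. It was higher in the knockdown array of each pair, but the groups overlapped, and the difference of 0.19 (SE 0.16) did not pass (limma adjusted p = 0.69). Its interval ran from -0.14 to 0.52. Skil, encoding the SMAD co-repressor SnoN, stood at 9.95, 9.89 and 10.02 in control and 9.91, 9.88 and 9.93 in knockdown replicates 1 to 3. It varied least of the 10 genes, with a difference of -0.05 (SE 0.08, limma adjusted p = 0.90, no variance filter) and an interval from -0.22 to 0.13. Within arrays, Tgfbi relative to Smad7 differed by -0.84 between the groups and relative to Skil by -0.61. These contrasts too were chosen after the values were seen and set a called gene against genes that did not pass. That their groups did not overlap (exact permutation p = 0.1) adds no separate evidence.

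The 3 calls also depended on single arrays. Without knockdown replicate 1 none of the 10 genes was called, with differences of -1.07 for Tgfb3 (limma adjusted p = 0.18), -0.61 for Tgfbr1 and -0.58 for Tgfbi (0.40 for both). In that setting 4 of 11705 probe sets were called. Without control replicate 2 Tgfb3 alone of the 10 was called, with 63 of all 11705 probe sets. All 3 were called with the replicate number as a block, with limma adjusted p of 0.0064, 0.0093 and 0.0079, where 7.65% of all probe sets were called, 4.89% lower and 2.77% higher. With the block and without the pair of arrays numbered 2, or without that numbered 3, none of the 10 genes was called. Those settings called 0 and 1 of all 11705 probe sets, so they say little about these genes in particular.

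**Figure D3:**
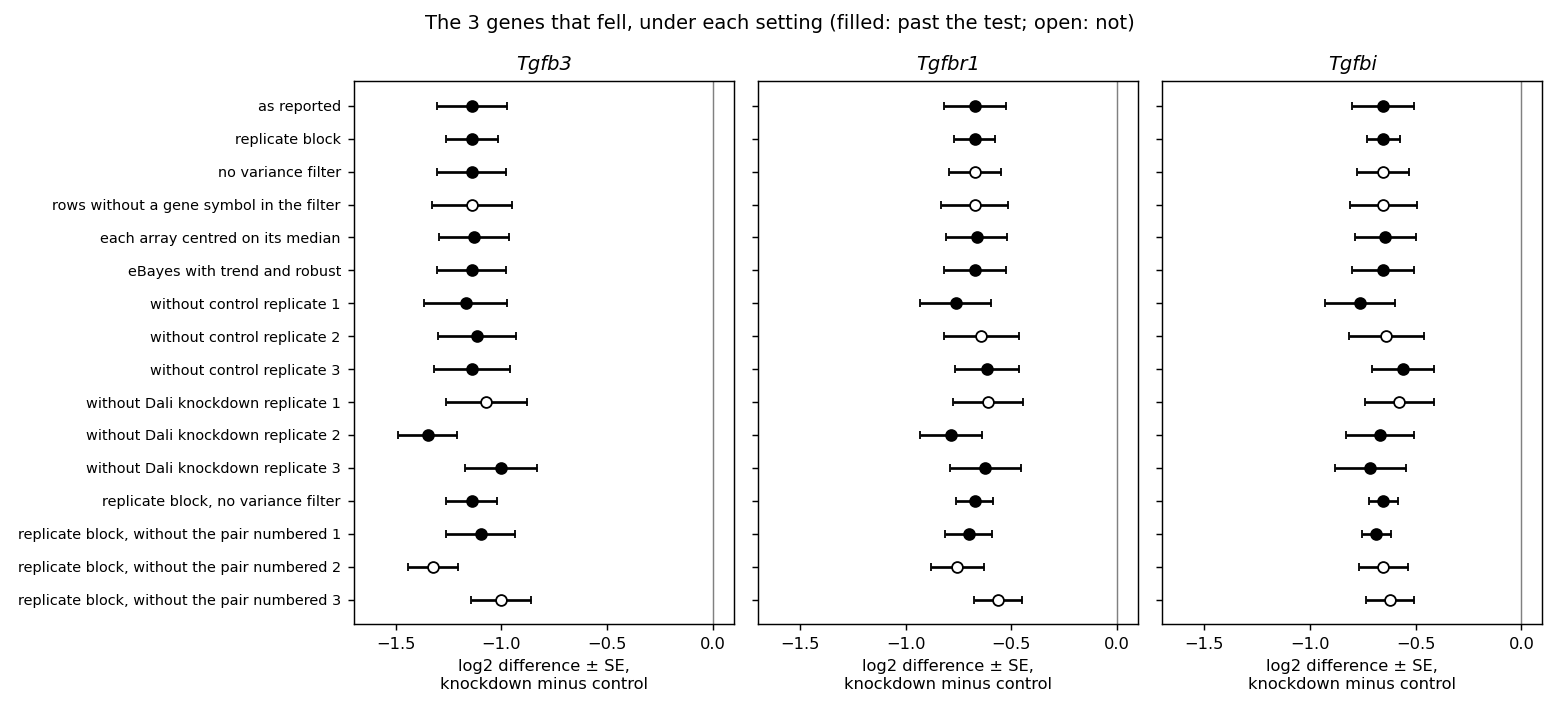
Difference of log2 RMA values, Dali knockdown minus control (horizontal axes), with its SE, for Tgfb3, Tgfbr1 and Tgfbi under each of 16 settings (vertical axis), with filled points where the gene was called. The differences lie between -1.35 and -1.0002 for Tgfb3, -0.79 and -0.56 for Tgfbr1, and -0.76 and -0.56 for Tgfbi, while the calls come and go.

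Genes around these 10 in the pathway were read from 9 lists, of which 149 of 155 genes were measured. Of the 79 probe sets kept by the filter, 1 was called, or 1.27%, near the 1.14% of all probe sets. That gene was Bhlhe40, a transcriptional repressor among the SMAD2/3 targets. It stood at 10.61, 10.39 and 10.27 in control and 9.85, 9.96 and 9.73 in knockdown replicates 1 to 3. The groups did not overlap, as for 15.4% of all named probe sets in either direction. It fell 1.49-fold, a difference of -0.58 (SE 0.14, limma adjusted p = 0.087), and was called in 7 of the 15 alternative settings. With the replicate block 7 of the 79 were called, or 8.86%, against 7.65% of all probe sets.

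Listed genes for latency and supply of ligand, which exclude Tgfb3, showed no called change, where 1.14% of all probe sets tested were called. At that share lists of this size hold few or no calls. Among 14 genes that hold or release latent TGF-beta, 7 had a higher and 7 a lower mean, with a median difference of 0.00, and 0 of the 3 tested were called. Ltbp3, which tethers the latent complex to the matrix, differed by -0.29 and Mmp14, a membrane-bound protease, by 0.19 (limma adjusted p = 0.48 and, with no variance filter, 0.55). Among 25 ligand genes of the activin, nodal, GDF and BMP branches, 0 of 12 tested were called, with differences from -0.22 to 0.13. Inhbb, an activin subunit, differed by 0.13 and Bmp5 by -0.22 (limma adjusted p = 0.67, no variance filter, and 0.64). The means of 12 of 14 extracellular antagonists were lower (median -0.12), against 44.8% of all named probe sets, and 0 of 6 tested were called. Fst (follistatin), which traps activins, differed by -0.31 and its relative Fstl3 by -0.26 (limma adjusted p = 0.50 and 0.59, no variance filter).

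Other receptors and SMADs likewise gave no call. Over all probe sets, 1.14% of those tested were called and 44.8% of those named had a lower mean. The means of 11 of 15 further receptor genes were higher (median 0.09), and 0 of 8 tested were called. Bmpr1a, a BMP type I receptor, differed by 0.24 and Bmpr2, the BMP type II receptor, by -0.23 (limma adjusted p = 0.48 and, with no variance filter, 0.40). In each case the groups did not overlap, as for 15.4% of all named probe sets, and both were named for the smallest p of their list. For other SMADs, adaptors and co-factors, 20 of 24 genes were higher on average (median 0.05), and 0 of 10 probe sets tested were called. Smad2, the partner of Smad3 downstream of TGFBR1, stood at 11.17, 11.28 and 11.12 in control and 11.41, 11.46 and 11.38 in knockdown replicates 1 to 3. Its groups did not overlap, in the opposite direction to Smad3, and the difference of 0.23 did not pass (SE 0.13, limma adjusted p = 0.50). The acetyltransferase gene Crebbp, a SMAD co-activator, differed by 0.22 (limma adjusted p = 0.52).

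**Figure D4:**
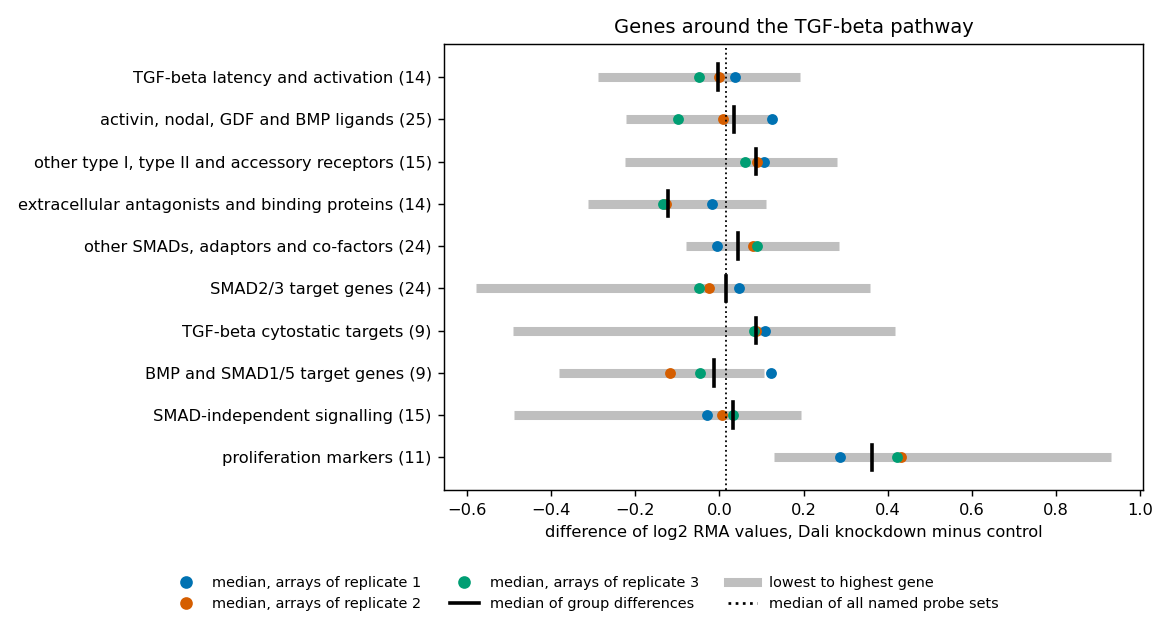
Difference of log2 RMA values, Dali knockdown minus control (horizontal axis), for 9 lists around the TGF-beta pathway and 1 of proliferation markers, with the number of genes measured in brackets. Grey bars run from the lowest to the highest gene, black ticks are medians over group differences, coloured points medians between arrays of one replicate number, and the dotted line is the median of all named probe sets (0.02). Medians of the 9 lists lie between -0.12 and 0.09, and that of the proliferation markers at 0.36.

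Among listed target genes, which exclude Tgfbi, 1 was called, where 1.14% of all probe sets tested were called, or 7.65% with the replicate block. Of 24 SMAD2/3 targets, 13 were higher and 11 lower on average (median 0.02), and 17 of 18 tested were not called, the other being Bhlhe40. Among 9 genes through which TGF-beta is known to hold back division, 0 of 6 tested were called, and with the replicate block 2 rose and 1 fell. Rbl1, a pocket protein that represses E2F targets, differed by 0.39 and Gadd45b, a stress-inducible SMAD target, by -0.49 (limma adjusted p = 0.23 and 0.16, or 0.023 and 0.014 with the block). Of 9 BMP targets, 0 of 8 tested were called. Id2, an inhibitor of bHLH factors, differed by -0.38 (limma adjusted p = 0.57) and was called with the block (0.022). Its pairs numbered 1, 2 and 3 differed by -0.36, -0.40 and -0.38, and replicate 3 was high in both groups. Id4, of the same family, differed by 0.07 (limma adjusted p = 0.86, no variance filter). Of 15 genes of SMAD-independent signalling, 0 of 8 tested were called. Map2k4, a kinase upstream of JNK, differed by -0.49 and Rock1, a kinase of the RhoA branch, by -0.46 (limma adjusted p = 0.11 and 0.15, or 0.013 and 0.014 with the block). For both, all knockdown arrays lay below all control arrays, as for 6.84% of all named probe sets, and both were named for the smallest p of their list.

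Markers of dividing cells moved with the groups. The means of all 11 measured were higher after knockdown (median 0.36). Of 12 probe sets tested 2 rose, in Rrm2 (1.91-fold) and Mcm6 (1.59-fold), or 5 with the replicate block. Over all probe sets 0.367% were called higher, or 2.77% with the block. Their mean level ran from 11.57 to 11.97 in control and from 12.03 to 12.30 in knockdown arrays, and their part in the falls of Tgfb3, Tgfbr1 and Tgfbi was not tested. Markers of mesenchymal cells, which also make TGF-beta and TGFBI, did not move as a list. Of 10 measured, 6 were higher on average (median 0.03), with a mean level of 7.48 to 7.59 in control and 7.45 to 7.59 in knockdown arrays. Of the 8 tested 0 were called, or 1 lower with the block, Pdgfrb. Endothelial, glial and leukocyte lists had medians of 0.05, 0.05 and 0.03, with 0 of 3 tested called in each. At the 1.14% called over all probe sets tested, lists this small hold few or no calls.

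Array medians lay between 7.86 and 7.93. The arrays carried no probe set with the symbol Dali, so its depletion was not analysed here. Of 14 markers of neuroblastoma and sympathetic neurons 13 were measured, and 0 of the 6 tested were called (1.14% of all probe sets tested). Of these 9 were lower and 4 higher on average (median -0.10), and 6 were lower and 3 higher in every pair. Over all named probe sets 44.8% had a lower mean, 19.7% were lower and 21.7% higher in every pair. All knockdown arrays lay below all control arrays for 3 of these markers (6.84% of named probe sets) and above them for 2 (8.59%). Their mean level ran from 10.43 to 10.52 in control and from 10.38 to 10.43 in knockdown arrays, and their part in the 3 falls was not tested. Stmn2 (13.51 ± 0.04), Chga (13.20 ± 0.08) and Hand2 (12.24 ± 0.08; SD, n = 3) are values in control cells, as are those of the neurofilament genes Nefl (6.22 ± 0.08) and Nefm (5.92 ± 0.05). Levels of different probe sets cannot be set against each other, and the files hold no detection call.

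The genes whose values ran most like those of Tgfb3 over the 6 arrays were Samd10 (Pearson r = 0.997), Kazald1 (0.994), Eef1akmt3 (0.993), Fbxo25 (0.992) and Rap1b (0.990), out of 11070 probe sets compared. Of these Kazald1 fell, with a log2 difference of -0.70 (limma adjusted p = 0.047). The other 4 did not pass and had differences from -0.35 to -0.24. These r values describe 6 points that share the group difference, and carry no test.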

How the data were processed

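RNA of N2A cells from 3 control and 3 Dali knockdown samples was measured on 6 arrays (200 ng RNA each). Sample titles gave each group and the replicate numbers 1 to 3. The authors background corrected and quantile normalised the arrays by RMA and summarised them at the gene level, and deposited them as log2 values (2.76 to 14.8). Tool versions: not given in the sources used here. An annotation table paired 21789 rows with 1 symbol and 1621 with several. The other 12146 rows stayed unnamed, and rows with several symbols gave no gene names. All 10 symbols were current in RefSeq.

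The test and thresholds follow the methods of the study. These also name a variance cut-off of 0.5 without its measure, read here as the median interquartile range over named probe sets, and the number of calls depends strongly on that reading. The 11705 of 23410 probe sets with the larger interquartile range were kept, and groups were compared with limma 3.58.1 (lmFit, eBayes, two-sided) in R 4.3.3. For genes that the filter dropped, values come from a fit to all named probe sets, marked "no variance filter". "Rose" and "fell" refer to called probe sets. Exact permutation tests were two-sided. Intervals are 95% intervals of the fit. The script was tested on simulated data. The number of arrays limits the precision, and p-values rest on the spread between these samples, which the study calls biological replicates.

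The 10 genes and the lists were chosen with earlier results of these data known. The 10 genes were named whatever their values, and of each list up to 3 called members, or the 2 whose p was smallest over all named probe sets. Rrm2 and Mcm6 were named by this rule. Pdgfrb, Stmn2, Chga, Hand2, Nefl and Nefm were named after their values were seen. Medians use 1 probe set per gene, that with the highest mean. Listed genes without a row of their own were not analysed here.

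Deviations from the group means were correlated between arrays of the same replicate number. Over 23410 probe sets r was 0.14, 0.65 and 0.65 for numbers 1, 2 and 3, each above 0.1. The numbers were therefore taken as pairs in the block fits and pair differences, while the main fit has no block. Deviations within a group sum to 0, so the r values do not stand independently of each other. For number 1 the link was not specific, control replicate 1 being closer to knockdown replicate 2 (r = 0.20).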

Additional observations from a re-analysis of the deposited data

How the results depend on the processing

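Tgfb3, Tgfbr1 and Tgfbi kept their direction in all 15 alternatives run, and were past the threshold in 11, 9 and 9 of them. Leaving out 1 array in turn gave 0 to 3 of the 10 genes called, 4 to 508 of all probe sets, and 0 to 5 of the pathway probe sets, with differences of -1.35 to -1.003 for Tgfb3. With the replicate block 896 of all probe sets and 7 of the pathway were called. The block changed no call of the 10 genes. Without the variance filter these counts were 41 and 0, and 1 of the 10 genes, Tgfb3, was called (limma adjusted p = 0.094). With rows lacking a gene symbol in the filter 0 of the 10, 0 of all and 0 of the pathway were called, and Tgfb3 differed by -1.14 (limma adjusted p = 0.39). With a trended, robust prior 427 and 4 were called. Chosen after seeing the data were the block without the filter (888 of all, 7 of the pathway) and the block without a pair, which leaves 1 residual degree of freedom. Without the pair numbered 1 it called 926 and 8, without that numbered 2 it called 0, 0 of the pathway and 0 of the 10 (Tgfb3 -1.32, limma adjusted p = 0.14), and without that numbered 3 it called 1 of all, 0 of the pathway and 0 of the 10 (Tgfb3 -1.0002, limma adjusted p = 0.12). Differences near 0 changed sign. Tgfbr2 was at 0.0084 with each array centred on its median, 0.023 and 0.046 with the block without the pairs numbered 2 and 3, and -0.043 to 0.058 without single arrays, and Tgfbr3 was at -0.115 to 0.0035 without single arrays. None of the other 7 genes was called under any alternative. The causes were not tested.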
